A study of Rattus norvegicus with 4 samples.

Results

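The expression of 42 interferon response genes was examined in neonatal rat cardiomyocytes given an excess of miR-25 or of either miR-106b or miR-93. Members were taken by gene symbol from a list that was drawn up with earlier results of these data known. It covers interferon receptors, sensors of foreign nucleic acid, transcription factors, antiviral effectors, the ISG15 system, PARP family proteins, antigen presentation and secreted proteins. Of the 42 listed genes, 40 were found among the 15731 genes with values, and Zbp1 and Xaf1 were not analysed here. Tap2 was present under 2 Ensembl identifiers, so that the list came to 41 rows. Levels were compared for the 36 rows with more than 1.0 RPKM (reads scaled to gene length and to library size) in at least 1 library, against 12193 genes of the whole data set above the same cutoff.

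Ventricular cardiomyocytes were isolated from hearts of wild type Wistar rats at postnatal day 1, an age that the description of the isolation gives instead as day 0. They were transfected with a mimic of hsa-miR-25-3p, of hsa-miR-93-5p or of hsa-miR-106b-5p, or with cel-miR-67, a nematode microRNA that served as the control. The stated final concentration was 25 nM, although the same number appears with the unit mM elsewhere in the descriptions, and RNA was collected 72 h after transfection. Mimics are synthetic RNA duplexes delivered with a lipid reagent, which the control culture received as well, and no culture without transfection was analysed here. Each of the 4 mimics was represented by 1 library. There was therefore no spread between replicates to set a difference against, no test between mimics was possible, and every ratio below compares 2 libraries.

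Interferons are secreted proteins that cells release on sensing foreign nucleic acid. Type I interferons bind a receptor made of Ifnar1 and Ifnar2, and the signal passes through JAK kinases to a transcription factor complex that contains Stat2 and Irf9. That complex binds the interferon-stimulated response element (ISRE) in the promoters of a large gene set whose products restrict viruses, mark proteins with ISG15 and display peptides to T cells, and interferon gamma acts through a different element, the gamma-activated sequence (GAS). Heart muscle cells, fibroblasts and resident macrophages can all express such genes.

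The 3 microRNAs come from a common precursor transcript, and their seeds (bases 2 to 8), which pair with target transcripts, show how they are related. The sequences given here are the mature rat microRNAs from RefSeq on assembly GRCr8, where all lie on chromosome 12 on the minus strand, with the seed in capitals. The seed AAAGUGC is shared by miR-106b and miR-93, and miR-25 has the seed AUUGCAC.
rno-miR-106b-5p: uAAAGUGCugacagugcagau
rno-miR-93-5p: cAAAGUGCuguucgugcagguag
rno-miR-25-3p: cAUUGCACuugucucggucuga

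Promoter sequences, taken from 250 bases before to 50 bases after the start of each gene, were given by RefSeq (GRCr8) for 32 of the 40 genes. The ISRE core was searched as GAAANNGAAA and the GAS core as TTCNNNGAA, on both strands. At least 1 ISRE match was present in 19 of the 32 promoters (59.4%), and in 3.77% of all 27457 promoters. A GAS match was present in 7 of the 32 (21.9%) and in 8.68% of all promoters, and in 1 member promoter matches of both kinds overlapped. The ISRE matches lay at sensors (Ifih1 and Eif2ak2), at Irf7, at Dtx3l, Parp12 and Parp14, at effectors such as Oas1a, Bst2 and Gbp2, at Ifi27, Ifi44 and Ifi44l, at Tap1, Tap2 and B2m, and at Cxcl10 and Lgals3bp. GAS matches were found at Ifnar2, Irf1, Irf9, Parp14, Oas1a, Bst2 and Ifi44l. A match is a run of letters and not a measured binding site.

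Promoters of 4 genes are printed because their genes were lower with miR-25 than with the control and hold ISRE matches, which are in capitals. They lie at chr12:41330216-41330515 on the plus strand (Oas1a), and on the minus strand at chr16:18254918-18255217 (Bst2), chr2:243303791-243304090 (Ifi44) and chr1:205799974-205800273 (Irf7). In Oas1a and in Bst2 a pair of matches overlapped by 4 bases, Ifi44 held 2 separate matches, and Irf7 held 1.
Oas1a: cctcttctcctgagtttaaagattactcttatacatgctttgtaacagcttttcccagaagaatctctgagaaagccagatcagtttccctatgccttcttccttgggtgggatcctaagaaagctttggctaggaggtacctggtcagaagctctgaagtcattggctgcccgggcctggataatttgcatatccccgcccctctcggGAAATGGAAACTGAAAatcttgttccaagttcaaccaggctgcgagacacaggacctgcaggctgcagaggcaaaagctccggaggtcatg
Bst2: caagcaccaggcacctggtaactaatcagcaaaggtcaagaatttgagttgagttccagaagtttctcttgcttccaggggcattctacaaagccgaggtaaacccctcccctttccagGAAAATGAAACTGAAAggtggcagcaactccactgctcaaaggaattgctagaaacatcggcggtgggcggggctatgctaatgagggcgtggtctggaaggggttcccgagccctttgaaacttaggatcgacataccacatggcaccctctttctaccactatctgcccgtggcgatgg
Ifi44: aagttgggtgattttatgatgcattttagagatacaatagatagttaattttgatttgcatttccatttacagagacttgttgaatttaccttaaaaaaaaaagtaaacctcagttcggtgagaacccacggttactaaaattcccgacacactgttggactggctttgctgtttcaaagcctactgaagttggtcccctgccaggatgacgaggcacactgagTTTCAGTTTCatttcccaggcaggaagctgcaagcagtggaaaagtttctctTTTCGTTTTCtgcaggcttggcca
Irf7: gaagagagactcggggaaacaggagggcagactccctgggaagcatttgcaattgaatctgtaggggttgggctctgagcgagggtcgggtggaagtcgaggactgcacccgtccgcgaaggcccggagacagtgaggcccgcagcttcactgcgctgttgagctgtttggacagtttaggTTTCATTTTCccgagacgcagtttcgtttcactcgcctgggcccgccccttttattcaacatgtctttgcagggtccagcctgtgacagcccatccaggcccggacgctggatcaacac

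The libraries held 15175185 to 18797234 recovered reads on the genes with values. Cardiomyocyte markers were abundant, with the cardiac troponin gene Tnnt2 between 1749.9 and 2432.9 RPKM, although Tnni3 was at only 15.9 RPKM with miR-25. The cultures thus carried markers of their label. Genes of other cell types were also well expressed, such as the fibroblast marker Col3a1 (129.7 to 326.5 RPKM) and the smooth muscle marker Acta2 (127.9 to 440.2 RPKM). In the sentences below, 4 values in a row are the libraries with miR-106b, miR-93, miR-25 and cel-miR-67, in that order. A log2 ratio is the deposited RPKM with a mimic over that with cel-miR-67, computed without a pseudocount, and genes past 1.3-fold (0.38 on the log2 scale) were counted as higher or lower. The bracketed range is a 95% exact interval from the recovered reads, which covers counting error only and not variation between cultures. The intervals hold for the recovered reads. The study's methods state a far lower number of reads per sample, at which the intervals would be wider. The smallest whole numbers that give the deposited ratios of each gene sum to at least 14863717 reads a library.

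The interferon response genes spanned a wide range of levels. Ifi27 was the most abundant at 209.2, 180.9, 98.1 and 179.7 RPKM, followed by B2m at 97, 79.3, 105.8 and 115.2 RPKM. The median member stood at 6.55, 6.07, 4.1 and 5.8 RPKM, whereas the median of all genes tested stayed between 7.36 and 7.45 RPKM in every library. The miR-25 library thus had the lowest median member level. Its recovered reads on a tested member ranged from 4 (Rtp4) to 5268 (B2m), with a median of 283.5.

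**Figure D1:**
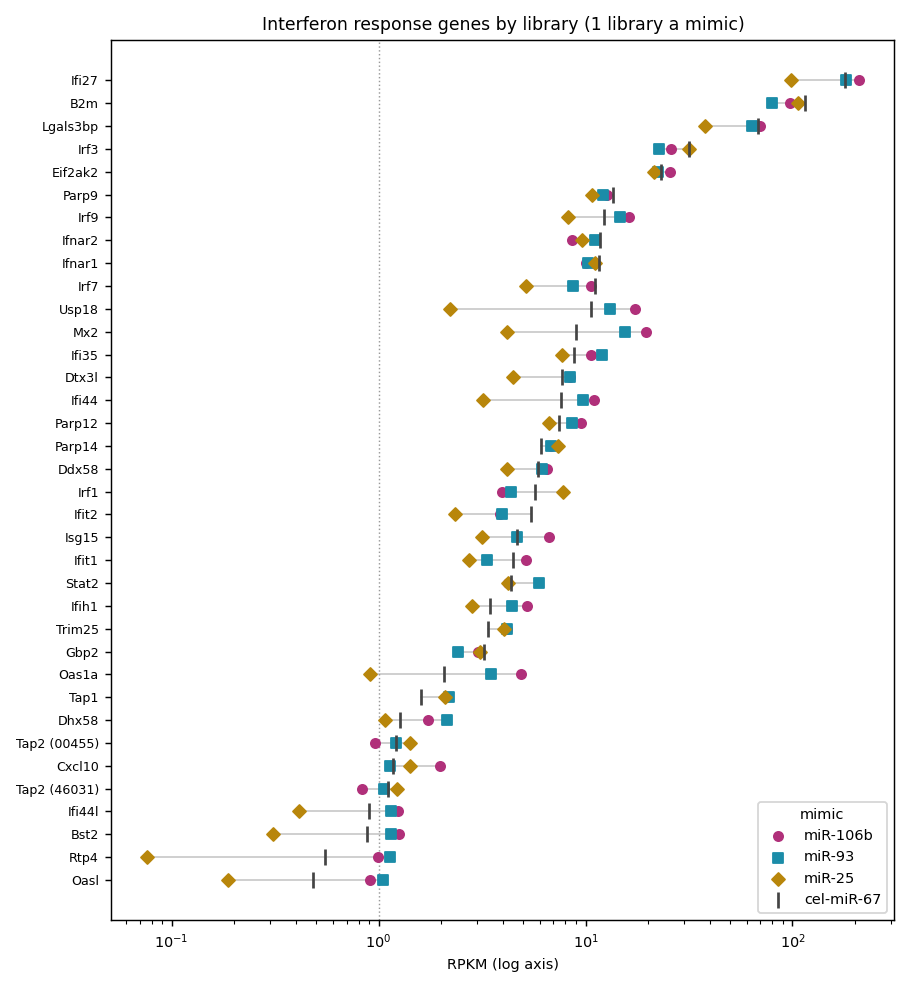
RPKM (log axis) of the 36 tested rows in each of the 4 libraries, sorted by the cel-miR-67 level, with Tap2 shown under the last digits of its 2 identifiers and a dotted line at 1.0 RPKM. The miR-25 library (diamonds) lies at the left end of many rows, as for Usp18 at 2.22 RPKM and Rtp4 at 0.0761 RPKM, while Irf1 has its highest value, 7.8 RPKM, in that library. Rtp4 passed the cutoff only through the miR-93 library.

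The miR-25 library was the lowest of the 4 for 23 of the 36 rows (63.9%), and for 36.5% of all genes tested. The miR-106b library was the highest for 16 rows (44.4%), and for 18.7% of all genes. The highest library exceeded the lowest by more than 2-fold for 12 of the 36 rows (33.3%) and for 23% of all genes. Rtp4, Oasl, Bst2 and Ifi44l were among the 12. They passed the cutoff only through libraries in which they were high, so that a wide span was favoured. The span was largest for Rtp4 (15-fold), Usp18 (7.81-fold), Oasl (5.63-fold), Oas1a (5.36-fold), Mx2 (4.73-fold) and Bst2 (4.08-fold), and in all 6 the lowest library was miR-25. For Rtp4, Oasl and Bst2 that order was partly set by the cutoff, and their miR-25 levels rested on 4, 14 and 11 reads. At the other end, Ifnar1 (1.14-fold), Eif2ak2 (1.2-fold) and Parp14 (1.21-fold) were nearly level across the 4 libraries.

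With miR-106b, 14 of the 36 rows (38.9%) were higher than with cel-miR-67, where 13.8% of all genes were, and 4 (11.1%) were lower, where 13.9% of all genes were. Counting only ratios whose interval left out 0, 12 rows were higher (11.6% of all genes) and 3 were lower (12.4% of all genes). The median log2 ratio was 0.22, and -0.00 over all genes. With values above 1.0 RPKM required in both libraries, 10 of 30 rows (33.3%) were higher, against 11.9% of all genes, and 3 (10%) were lower, against 12.7%.

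With miR-93, 9 rows (25%) were higher, against 17.2% of all genes, and 6 (16.7%) were lower, against 16.9%. With the interval leaving out 0, the counts were 8 higher (15.3% of all genes) and 6 lower (15.4%). The median log2 ratio was 0.10, and 0.00 over all genes. The lower share was that of the background, and the higher share was close to it once genes had to pass 1.0 RPKM in both libraries, at 18.8% of 32 rows and 15.1% of all genes, with a median log2 ratio of 0.00.

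With miR-25, 17 rows (47.2%) were lower, against 24.2% of all genes, and 2 (5.56%) were higher, against 20.9%. All 17 and both of the higher rows had an interval that left out 0, against 22.6% and 19.4% of all genes. The median log2 ratio was -0.32, and -0.01 over all genes. With values above 1.0 RPKM required in both libraries, 12 of 31 rows (38.7%) were lower, against 22.6% of all genes, and 2 (6.45%) were higher, against 19.3%. Because these 3 comparisons share the cel-miR-67 library, their values for each gene are given side by side and not as independent results.

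Cell type markers moved in the miR-25 library as well. Beside the marker counts that follow, 24.2% of all genes tested were lower and 20.9% higher with miR-25. Of 12 macrophage markers, 9 were tested, with 7 lower and 0 higher with miR-25, and the summed level of the list was 23.2, 27.4, 16.4 and 25.6 RPKM. The complement gene C1qa was at 4.43, 4.86, 1.26 and 3.87 RPKM, Cd163 was at most 0.135 RPKM and no marker was at 0 in every library. All 11 cardiomyocyte markers were lower with miR-25, with sums of 19521.9, 14914.9, 12726.1 and 21635.3 RPKM, and Tnni3, a troponin subunit, was at 543.0, 494.7, 15.9 and 351.4 RPKM. Of 9 fibroblast markers 7 were lower and 1 was higher with miR-25 (sums of 648.3, 750.8, 334.2 and 834.7 RPKM), of 3 tested endothelial markers 2 were lower and 1 was higher (6.49, 6.8, 5.75 and 8.56 RPKM), and all 4 smooth muscle markers were higher (685.9, 582.7, 2051.5 and 744.9 RPKM). No lymphocyte marker of 6 was analysed here. The part of these cell type markers in the values of the interferon response genes was not tested, and in bulk RNA fewer cells of a type and less RNA per cell cannot be told apart.

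**Figure D2:**
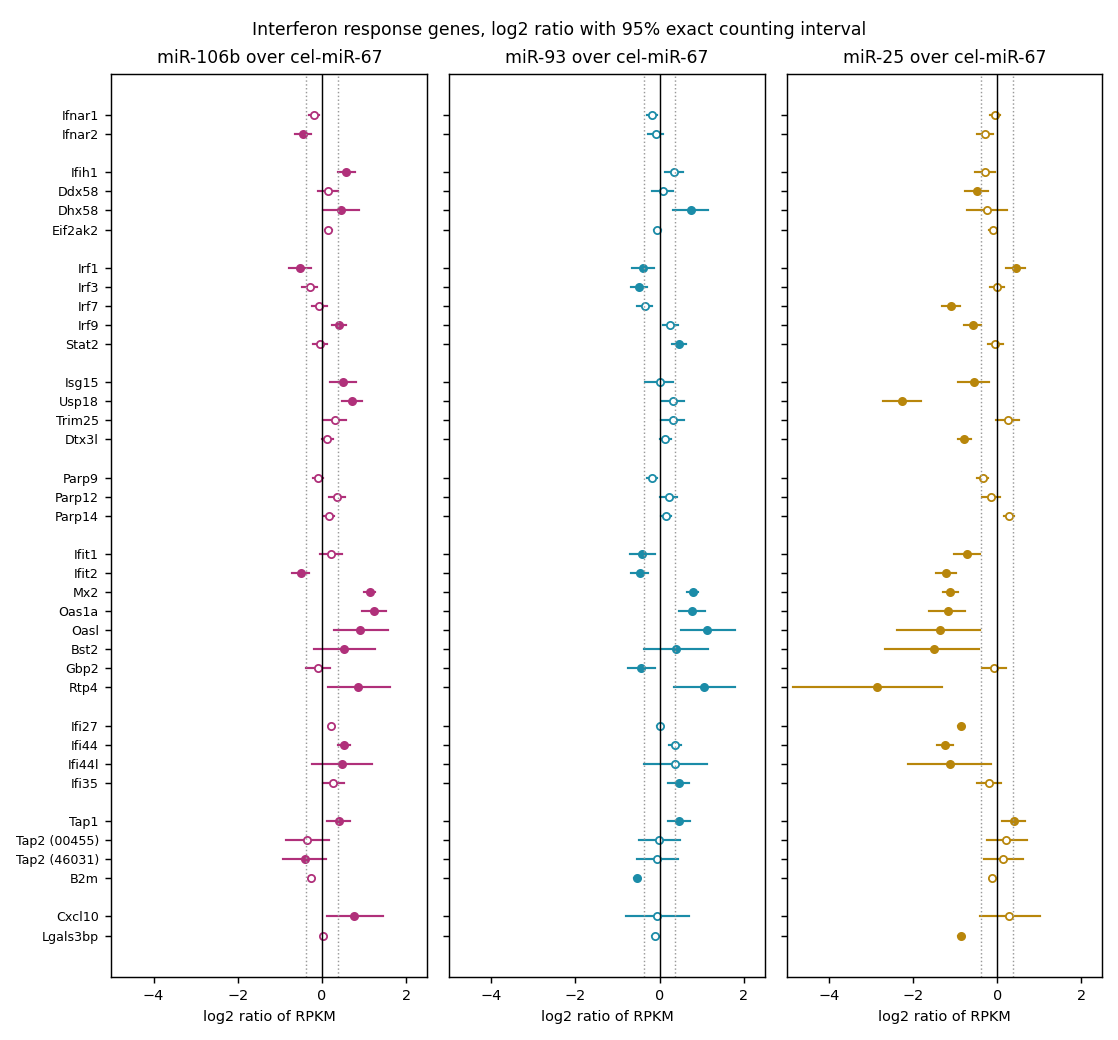
Log2 ratio of RPKM over cel-miR-67 (horizontal axis) for each tested row, 1 panel a mimic, with rows grouped by role from receptors at the top to secreted proteins at the bottom. Points are ratios, filled where past 1.3-fold (dotted lines), and bars are 95% exact counting intervals. The points of Mx2, Oas1a, Oasl, Bst2 and Rtp4 lie right of 0 with miR-106b and miR-93 and left of it with miR-25, with bars of Bst2 that cross 0 for the first 2 mimics. Oasl, Bst2 and Rtp4 passed the cutoff only through libraries in which they were high, so that their side of 0 was partly set by the filter.

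The receptor genes differed little between libraries. Ifnar1 (ENSRNOG00000028594) was at 10.1, 10.3, 11.1 and 11.6 RPKM, with log2 ratios of -0.19 for miR-106b, -0.17 for miR-93 and -0.06 for miR-25. Ifnar2 (ENSRNOG00000045668) was at 8.6, 11.1, 9.61 and 11.8 RPKM and was lower with miR-106b, at a log2 ratio of -0.46 (-0.65 to -0.27). Both subunits had their highest value in the control library.

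Of the sensors of foreign nucleic acid, 4 were tested. Ifih1 (MDA5), a cytoplasmic receptor for long double-stranded RNA, was at 5.19, 4.42, 2.83 and 3.47 RPKM, with log2 ratios of 0.58 (0.38 to 0.78) for miR-106b, 0.35 for miR-93 and -0.29 for miR-25. Ddx58 (RIG-I), which recognises RNA with a triphosphate end, was at 6.48, 6.18, 4.19 and 5.88 RPKM, and was lower with miR-25 at -0.49 (-0.76 to -0.21). Dhx58 (LGP2), a relative of both that modulates their signalling, was at 1.74, 2.13, 1.07 and 1.27 RPKM, with log2 ratios of 0.45 (0.03 to 0.87), 0.74 (0.33 to 1.16) and -0.25 (-0.72 to 0.23). For all 3 genes the miR-25 library was the lowest, although for Dhx58 it did not differ from the control beyond counting error. Eif2ak2 (PKR), a kinase that halts translation on binding double-stranded RNA, stayed within 1.3-fold at 25.7, 22.3, 21.5 and 23.2 RPKM.

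The transcription factors did not share a direction. Irf7, the factor that amplifies type I interferon production, was at 10.6, 8.67, 5.17 and 11.1 RPKM. Its log2 ratio was -1.10 (-1.31 to -0.88) with miR-25, -0.35 with miR-93 and -0.06 with miR-106b, so that only the miR-25 library was past 1.3-fold. Irf9, the DNA-binding subunit of the complex that type I interferons activate, was at 16.2, 14.6, 8.2 and 12.3 RPKM, with a log2 ratio of 0.40 (0.23 to 0.57) with miR-106b and -0.58 (-0.79 to -0.38) with miR-25. Stat2, its partner, was at 4.22, 5.95, 4.23 and 4.35 RPKM, and it was higher with miR-93 at 0.45 (0.29 to 0.62).

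Irf1, an activator best known for responding to interferon gamma, had the opposite order. It was at 3.97, 4.36, 7.8 and 5.73 RPKM, with log2 ratios of 0.44 (0.22 to 0.67) with miR-25, -0.53 (-0.79 to -0.27) with miR-106b and -0.39 (-0.65 to -0.14) with miR-93. Irf3, which is activated by phosphorylation downstream of the sensors, was at 25.9, 22.7, 31.7 and 31.7 RPKM and was lower with miR-93 at -0.48 (-0.67 to -0.30). Its level with miR-25 did not differ from the control beyond counting error, at -0.00 (-0.17 to 0.17).

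In the ISG15 and ubiquitin system, the largest difference was that of Usp18 (ENSRNOG00000037198). Usp18 removes ISG15 from proteins and restrains signalling at the interferon receptor. It was at 17.4, 13.2, 2.22 and 10.6 RPKM, from 452, 316, 53 and 210 reads. The level with miR-25 was 4.76-fold below the control, a log2 ratio of -2.25 (-2.71 to -1.81), and the level with miR-106b was 1.64-fold above it, at 0.71 (0.47 to 0.96). With miR-93 the ratio was 0.32 (0.06 to 0.58), within 1.3-fold.

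Isg15 itself, the ubiquitin-like modifier, was at 6.63, 4.65, 3.16 and 4.67 RPKM. Its log2 ratio was 0.51 (0.20 to 0.81) with miR-106b and -0.56 (-0.94 to -0.20) with miR-25, and -0.00 (-0.34 to 0.33) with miR-93. Dtx3l, a ubiquitin ligase that works as a partner of Parp9, was at 8.39, 8.42, 4.45 and 7.67 RPKM and was lower with miR-25 at -0.79 (-0.94 to -0.63). Trim25, the ubiquitin ligase that acts on RIG-I, stayed within 1.3-fold, at 4.16, 4.18, 4.03 and 3.37 RPKM, and Herc6, a ligase for ISG15, did not exceed 0.44 RPKM.

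The PARP family, enzymes that attach ADP-ribose to proteins or are related to such enzymes, stayed within 1.3-fold of the control in all 3 libraries. Parp9 was at 12.7, 12.1, 10.8 and 13.6 RPKM, Parp12 at 9.54, 8.65, 6.69 and 7.42 RPKM and Parp14 at 6.79, 6.81, 7.36 and 6.08 RPKM. Parp9, Dtx3l and Parp14 are neighbouring genes in the RefSeq table. With miR-25 their log2 ratios were -0.34 (-0.47 to -0.21), -0.79 (-0.94 to -0.63) and 0.27 (0.16 to 0.39), and these intervals did not overlap.

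Of the 12 antiviral effectors listed, 8 were tested, and Oasl, Rtp4 and Bst2 among them passed the cutoff only through libraries in which they were high. The other 5 had median log2 ratios of -1.11 for miR-25, 0.21 for miR-106b and -0.41 for miR-93. In the miR-25 library 4 of the 5 were lower and 0 were higher, in the miR-106b library 1 was lower and 2 were higher, and in the miR-93 library 3 were lower and 2 were higher. Of all genes above 1.0 RPKM in the control, 24.7% were lower and 18.8% higher with miR-25. The shares were 14.1% and 11.6% with miR-106b, and 17.2% and 14.8% with miR-93. Gbp2, an interferon-induced GTPase, was the effector that stayed within 1.3-fold with miR-25, at 3.02, 2.41, 3.08 and 3.24 RPKM.

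Mx2 (ENSRNOG00000001963), a dynamin-like GTPase that restricts RNA viruses, was the best measured of them, at 19.7, 15.5, 4.17 and 8.98 RPKM from 2185, 1581, 423 and 759 reads. Its log2 ratio was 1.13 (1.01 to 1.25) for miR-106b, 0.79 (0.66 to 0.92) for miR-93 and -1.11 (-1.28 to -0.94) for miR-25. Its relative Mx1 did not pass the cutoff, at 0.679, 0.607, 0.432 and 0.399 RPKM. The level of Mx1 with miR-25 did not differ from the control beyond counting error, at 0.11 (-0.61 to 0.85), from 39 and 30 reads.

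Oas1a (ENSRNOG00000001369) belongs to the oligoadenylate synthetases, which on binding double-stranded RNA make the messenger that switches on RNase L. It was at 4.87, 3.5, 0.909 and 2.06 RPKM, with log2 ratios of 1.24 (0.96 to 1.53), 0.76 (0.46 to 1.07) and -1.18 (-1.62 to -0.76). Oasl, a related protein, was at 0.905, 1.05, 0.187 and 0.481 RPKM, with 0.91 (0.28 to 1.57), 1.13 (0.51 to 1.79) and -1.36 (-2.39 to -0.41). Both genes had their lowest level with miR-25 and their next lowest in the control. Oas1a is a member of a gene family with near-identical copies in the rat, between which reads can be shared.

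Rtp4 (ENSRNOG00000028895), a chaperone of membrane receptors that interferon induces, had the largest ratio but few reads. It was at 0.994, 1.14, 0.0761 and 0.549 RPKM, from 57, 60, 4 and 24 reads. The log2 ratios were 0.86 (0.14 to 1.61), 1.05 (0.35 to 1.80) and -2.85 (-4.84 to -1.31). Bst2 (tetherin), which holds budding virions at the cell surface, was similarly low, with 49, 41, 11 and 26 reads, or 1.26, 1.15, 0.309 and 0.878 RPKM. The ratio with miR-25 was -1.51 (-2.67 to -0.44). With miR-93 (0.39, -0.36 to 1.16) and miR-106b (0.52, -0.19 to 1.27) the ratios did not exceed counting error.

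The IFIT proteins, which bind foreign RNA ends, followed a different order, in that neither miR-106b nor miR-93 gave a higher level past 1.3-fold. Ifit2 was at 3.87, 3.94, 2.35 and 5.47 RPKM and was lower with each mimic, at -0.50 (-0.70 to -0.30), -0.47 (-0.68 to -0.27) and -1.22 (-1.46 to -0.98). Ifit1 was at 5.17, 3.36, 2.73 and 4.46 RPKM, and was lower with miR-25 at -0.71 (-1.02 to -0.40) and with miR-93 at -0.41 (-0.70 to -0.12). Ifit3, the neighbour of Ifit2, was below the cutoff at 0.324 to 0.512 RPKM.

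In all, 5 rows had no value above 1.0 RPKM and were left out of the counts. They were Mx1, Ifit3 and Herc6, already described, and Rsad2 (viperin, 0.361 to 0.549 RPKM) and its neighbour Cmpk2 (a mitochondrial nucleotide kinase, 0.172 to 0.359 RPKM). Of the rows nearest the cutoff, Oasl entered with a highest value of 1.05 RPKM and Mx1 was left out with a highest value of 0.679 RPKM. Oasl, Rtp4, Ifi44l and Bst2 were at or below 1.0 RPKM in the control, and entered through the libraries with miR-106b or miR-93 in which they were higher.

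Of 4 tested interferon-induced genes of less clear role, 3 were lower with miR-25, against 24.2% of all genes. Of the 3 above 1.0 RPKM in the control, 2 were lower, against 24.7%. Ifi27, a mitochondrial protein in its best studied form, had a log2 ratio of -0.87 (-0.94 to -0.80) with miR-25 and stayed within 1.3-fold with the other mimics, at 0.22 and 0.01. Ifi44 was at 11, 9.77, 3.21 and 7.62 RPKM, with 0.53 (0.39 to 0.66), 0.36 (0.22 to 0.50) and -1.25 (-1.44 to -1.06). Its neighbour Ifi44l was at 1.24, 1.15, 0.413 and 0.894 RPKM, with a ratio of -1.11 (-2.13 to -0.15) with miR-25, from 15 and 27 reads. Ifi44l passed the cutoff only through the miR-106b and miR-93 libraries, in which it was high. Ifi35, at 10.6, 12, 7.71 and 8.81 RPKM, was higher with miR-93, at 0.45 (0.20 to 0.70).

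Genes of antigen presentation showed no lower level with miR-25 past 1.3-fold. Tap1, a subunit of the peptide transporter of the endoplasmic reticulum, was at 2.12, 2.2, 2.1 and 1.61 RPKM, higher than the control with each mimic, at 0.40 (0.13 to 0.67), 0.46 (0.19 to 0.73) and 0.39 (0.11 to 0.66). Tap2, the other subunit, had near-equal values under both identifiers, at 0.956, 1.21, 1.42 and 1.22 RPKM (ENSRNOG00000000455) and 0.831, 1.06, 1.23 and 1.11 RPKM (ENSRNOG00000046031), so that the rows may hold the same reads. Its ratios did not exceed counting error for any mimic over the control. B2m, the light chain of MHC class I, was lower with miR-93 at -0.54 (-0.60 to -0.48) and within 1.3-fold with miR-106b (-0.25) and miR-25 (-0.12).

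The secreted proteins differed from each other. Lgals3bp, a glycoprotein that binds galectin-3, was at 69.5, 63.4, 37.6 and 68 RPKM, and its log2 ratio was -0.85 (-0.93 to -0.78) with miR-25 and near 0 with miR-106b and miR-93 (0.03 and -0.10). Cxcl10, a chemokine that attracts T cells, was at 1.99, 1.13, 1.42 and 1.17 RPKM from 67, 35, 44 and 30 reads. It was higher with miR-106b, at 0.77 (0.13 to 1.44), and its ratio with miR-25 was 0.29 (-0.41 to 1.01).

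The mimics were next compared with each other, without the control library. With miR-93 over miR-106b, 1 row of 36 (2.78%) was higher, against 8.69% of all genes, and 5 (13.9%) were lower, against 9.44%, and the median log2 ratio was -0.12, against 0.00 over all genes. The higher gene was Stat2, at 0.50 (0.35 to 0.65). The lower genes were Cxcl10 (-0.81, -1.45 to -0.20), Ifit1 (-0.62, -0.89 to -0.36), Isg15 (-0.51, -0.80 to -0.22), Oas1a (-0.48, -0.70 to -0.25) and Usp18 (-0.39, -0.61 to -0.18).

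With miR-25 over miR-106b, 22 rows (61.1%) were lower, against 24.9% of all genes, and 3 (8.33%) were higher, against 23.5%. The median log2 ratio was -0.66, and -0.00 over all genes. Rtp4 (-3.71, -5.63 to -2.27), Usp18 (-2.97, -3.40 to -2.55), Oas1a (-2.42, -2.80 to -2.06), Oasl (-2.28, -3.22 to -1.44) and Mx2 (-2.24, -2.40 to -2.09) had the lowest ratios. The 3 higher rows were Irf1 (0.97, 0.74 to 1.21) and the 2 of Tap2 (0.57 and 0.56). With 1.0 RPKM required in both libraries, 17 of 29 rows (58.6%) were lower, against 23% of all genes, and 1 (3.45%) was higher, against 22.1%.

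With miR-25 over miR-93, 20 rows (55.6%) were lower, against 24.9% of all genes, and 3 were higher, against 23.4%. The median was -0.56, and -0.02 over all genes. With 1.0 RPKM required in both libraries, 15 of 31 rows (48.4%) were lower, against 23% of all genes, and 3 (9.68%) were higher, against 22.1%. Usp18 stood at -2.57 (-3.02 to -2.15) and Mx2 at -1.90 (-2.06 to -1.74). The higher genes were Irf1 (0.84, 0.61 to 1.07), Irf3 (0.48, 0.30 to 0.66) and B2m (0.42, 0.36 to 0.48). Both of these comparisons and that with the control rest on the same miR-25 library.

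**Figure D3:**
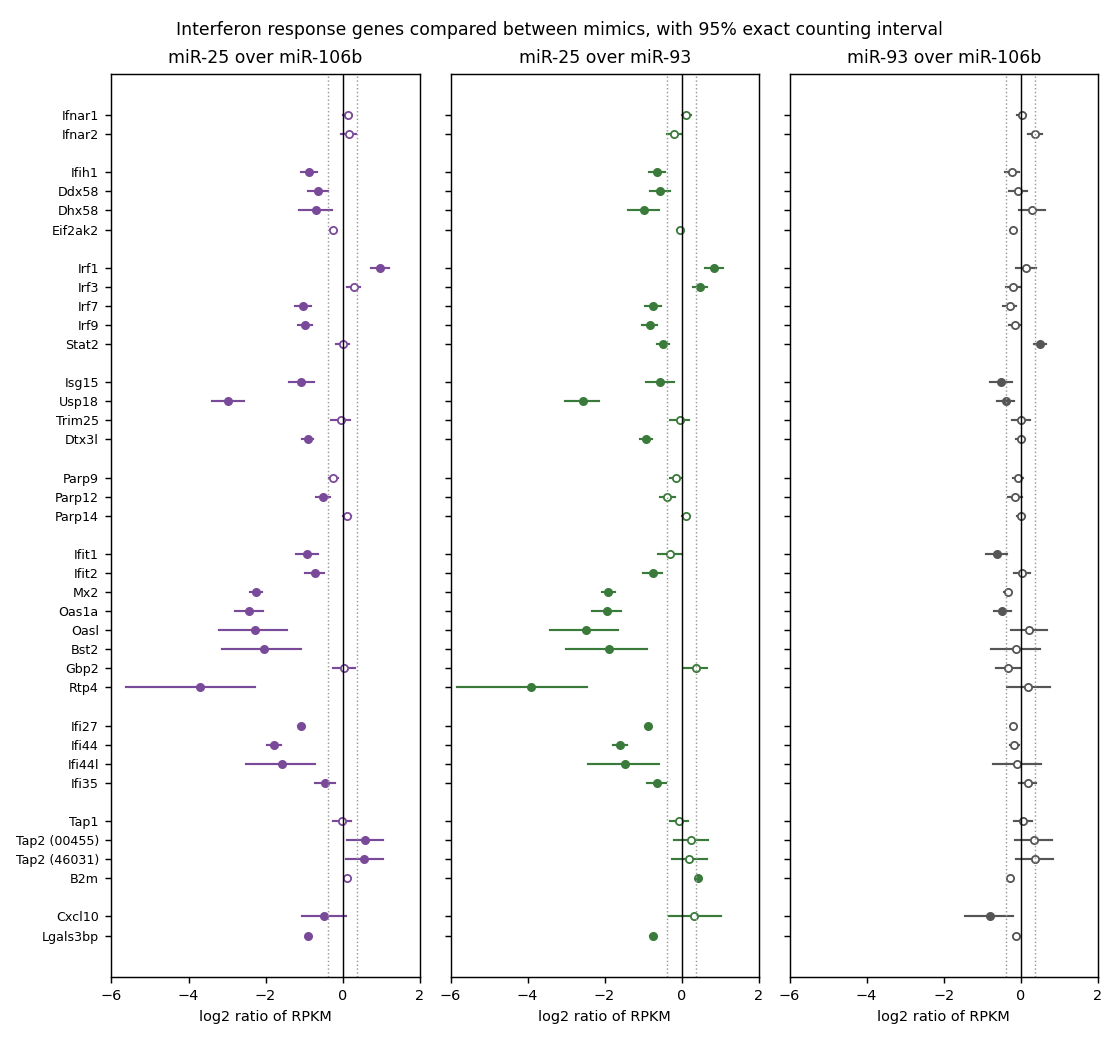
Log2 ratio of RPKM between mimics (horizontal axis) for each tested row, grouped by role, with 95% exact counting intervals as bars and points filled past 1.3-fold (dotted lines). In the panels of miR-25 over miR-106b and over miR-93, Usp18 (-2.97 and -2.57) and the effectors from Mx2 to Rtp4 other than Gbp2 lie far left, and in the panel of miR-93 over miR-106b most points lie between the dotted lines. Of these effectors, Oasl, Bst2 and Rtp4 passed the cutoff only through libraries in which they were high.

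Members were also divided by the ISRE match in the promoters described above. With miR-25, 8 of the 18 tested rows with a match were lower and 1 was higher, with a median log2 ratio of -0.22, and of 10 tested rows with a promoter and no match 2 were lower and 1 was higher, with a median of -0.13. The 18 rows stand for 17 genes, since both rows of Tap2 have the same promoter. They include Bst2 and Ifi44l, which passed the cutoff only through libraries in which they were high. In the comparison of miR-25 over miR-106b, 11 of the 18 and 3 of the 10 were lower, with medians of -0.69 and -0.02. For miR-25 over miR-93 the counts were closer, at 9 of the 18 and 4 of the 10, with medians of -0.51 and -0.19. Of 214 tested genes outside the list with an ISRE match, 42 were lower and 29 were higher with miR-25, and their median was -0.02. Of 8065 such genes without a match, 1830 were lower and 1681 higher, with a median of -0.00. For miR-25 over miR-106b, 51 of the 214 and 1859 of the 8065 were lower, with medians of -0.02 and 0.01. For miR-25 over miR-93 the counts were 43 and 1903, with medians of 0.02 and -0.01. Usp18, Mx2, Rtp4 and Isg15, with no promoter among those searched, are outside these counts.

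Other genes of the pathway were taken from 6 further lists with 85 genes, of which 54 were tested. The miR-25 library had 9 higher and 11 lower with a median log2 ratio of 0.05, the miR-106b library 7 and 8 with a median of 0.01, and the miR-93 library 7 and 12 with a median of -0.07. Over all genes tested, 20.9% were higher and 24.2% lower with miR-25. The shares were 13.8% and 13.9% with miR-106b, and 17.2% and 16.9% with miR-93. None of the 7 interferon ligand genes listed was analysed here.

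Among 10 tested genes of receptor signalling, 1 was lower and 0 were higher with miR-25, against 24.2% and 20.9% of all genes. Jak1, the kinase bound to Ifnar2, was at 30.9, 32.7, 63.7 and 53.6 RPKM, with log2 ratios of 0.25 with miR-25, -0.71 (-0.77 to -0.65) with miR-93 and -0.79 (-0.85 to -0.73) with miR-106b. It was low in both libraries in which Mx2 and Oas1a were high. Ifit2 was below the control in those libraries too, but it was lowest with miR-25, at 2.35 RPKM, where Jak1 was highest. Whether these levels are related was not tested. Ptpn11, a phosphatase, was at 44.9, 36.9, 48.5 and 41.3 RPKM and Stat3, a related signal transducer, at 36.6, 39.9, 50 and 44.3 RPKM.

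Adaptors and kinases of the sensors showed 2 higher and 2 lower of 10 with miR-25, against 20.9% and 24.2% of all genes. Tbk1, the kinase that activates Irf3, was at 11.2, 10.2, 12.7 and 10.2 RPKM, Tank at 11.7, 9.09, 10.7 and 10.3 RPKM and Traf6 at 3.63, 3.68, 3.65 and 3.32 RPKM. Of 4 tested other interferon regulatory factors and their binding proteins, 2 were higher with miR-25, against 20.9% of all genes. Irf2bp2, a corepressor that binds Irf2, was at 11.8, 12.6, 17.4 and 10.4 RPKM.

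Of the other interferon-induced genes, 20 were tested, and 2 were higher and 6 lower with miR-25, against 20.9% and 24.2% of all genes. Their median log2 ratio was -0.04. The membrane proteins Ifitm2 (67.8, 51.7, 51.7 and 55.8 RPKM) and Ifitm3 (36.7, 35.9, 31.3 and 35.8 RPKM), which block virus entry, and the aminopeptidase Lap3 (22.2, 23.3, 23.8 and 23.4 RPKM) were the most abundant of them. None of these was past 1.3-fold with any mimic. In the MHC class I pathway 3 of 10 were higher and 2 lower with miR-25, against 20.9% and 24.2% of all genes. The chaperone Canx was at 157.2, 137.9, 173.5 and 80.2 RPKM, Calr at 365.3, 311.5, 286.0 and 463.4 RPKM, and the proteasome activator Psme1 at 133.6, 147.5, 84.4 and 105.8 RPKM.

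**Figure D4:**
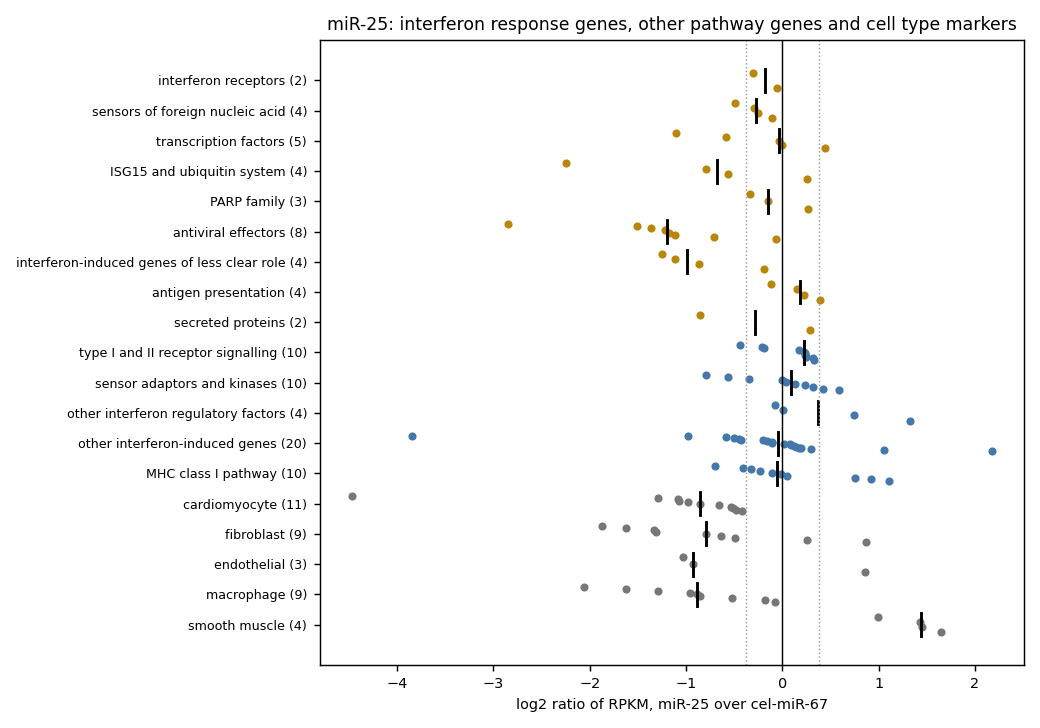
Log2 ratio of RPKM for miR-25 over cel-miR-67 (horizontal axis) for the tested interferon response genes by role (ochre), other pathway genes (blue) and cell type markers (grey), with 1 point a gene, the number of genes in brackets, a black bar at the median and dotted lines at 1.3-fold. Antiviral effectors have a median of -1.20, or -1.11 over the 5 that are above 1.0 RPKM in the control, and receptor signalling genes have 0.23, while the cardiomyocyte markers (-0.85) and macrophage markers (-0.89) lie left of 0 and the smooth muscle markers (1.44) right of it.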

How the data were processed

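RNA from neonatal rat cardiomyocyte cultures was sequenced, 1 library a mimic (4 in all). Per the methods and labels, the authors removed adaptors with Cutadapt, aligned reads to Rnor 6.0 with STAR 2.7 and computed RPKM values from rounded gene counts with edgeR, and these deposited RPKM values for 15731 genes were used. The program that counted reads, and whether it used strand, are not given in the sources used here. Reads were recovered from the RPKM values, which step by whole reads (all 15731 genes, with tolerance 0.0001 of the gene length), and gave library sizes of 22674410 to 29749467 reads, whereas the methods state far fewer reads per sample.

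A gene was tested with RPKM above 1.0 in at least 1 library and counted past 1.3-fold without a pseudocount. The study's results text names 1.0 RPKM and 1.3-fold, and its methods set RPKM above 2.0 in both libraries compared, which was an alternative. Exact (Clopper-Pearson) 95% intervals were computed in Python 3.11.15 with numpy 2.4.6, scipy 1.17.1 and pandas 2.3.3, and the calculation was tested on simulated data. With 1 library a mimic, no p-value was computed. Every listed member with values was named. Of the other pathway genes, counts are given, with values for up to 3 a list, those of the highest mean RPKM, and some of these are not reported here. Members and lists were chosen with earlier results of these data known. Pseudocounts, filters, scalings and cutoffs were varied. The division of the effectors by their control level was added after seeing the data. RefSeq sequences are of GRCr8, and gene coordinates on Rnor 6.0 were not used here.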

Additional observations from a re-analysis of the deposited data

How the results depend on the processing

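No paired analysis was possible because each mimic has 1 library. Of 180 recomputed counts and medians over the list, 148 were within 1.5 times the reported count or, for a median, within the typical counting interval of a member, 32 moved further and 0 reversed, and scaling by the median gene or by TMM factors (the trimmed mean of M values) moved none of them. For single members, 7 of 432 recomputed values moved and 0 reversed. The median of the antiviral effectors was -1.20 for miR-25, 0.58 for miR-93 and 0.69 for miR-106b over the 8 tested, and -1.11, -0.41 and 0.21 over the 5 above 1.0 RPKM in the control, a choice made after seeing the data that tests fewer genes. A cutoff of 1.5-fold gave 0 higher with miR-25, 5 higher and 0 lower with miR-93, 6 and 0 with miR-106b, 0 higher and 2 lower for miR-93 over miR-106b, 1 higher for miR-25 over miR-106b and 1 higher for miR-25 over miR-93. At 2-fold these were 0 and 10 with miR-25, 2 and 0 with either other mimic, 0 and 0 for miR-93 over miR-106b, 0 and 11 for miR-25 over miR-106b, and 0 and 8 for miR-25 over miR-93. The 2 with miR-93 were Oasl and Rtp4, and the 10 with miR-25 included both of these, Bst2 and Ifi44l. All of them passed 1.0 RPKM only through libraries in which they were high, so that these counts were partly set by the filter. A pseudocount of 1 left 7 higher with miR-106b, 3 lower with miR-93, and 1 higher both with miR-25 and for miR-25 over miR-106b, and a pseudocount of 0.1 left 1 higher with miR-25. With more than 2.0 RPKM in both libraries, 1 was higher with miR-25, 4 with miR-93, 7 with miR-106b and 1 for miR-25 over miR-106b, and with more than 1.0 RPKM in both, 1 for the last. Without a filter 5 were higher for miR-25 over miR-93. Shares of all genes at these changed cutoffs and pseudocounts, above 2.0 RPKM and without a filter are not reported here. These counts therefore show how the counts of the list moved, and not how they stand against all genes. By construction, higher cutoffs count fewer genes, stricter filters test fewer, and a pseudocount shrinks every ratio, most of all for genes of low level. Depth limits Rtp4, Oasl, Bst2 and Ifi44l, with 4 to 15 reads in the miR-25 library. The variation between cultures was not measured.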

Other observations

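Among the other interferon-induced genes, 3 were picked after their values were seen, for their ratios with miR-25. Gbp1, a GTPase of the family of Gbp2, was at 2.95, 2.26, 0.227 and 3.25 RPKM with miR-106b, miR-93, miR-25 and cel-miR-67, from 156, 110, 11 and 131 reads, a log2 ratio of -3.84 with miR-25. Ube2l6, the enzyme that conjugates ISG15, was at 17.3, 11.5, 7.94 and 15.7 RPKM, with a log2 ratio of -0.98 with miR-25. Isg20, an exonuclease for RNA, was at 1.06, 1.25, 3.56 and 0.784 RPKM from 23, 25, 71 and 13 reads, and had the ratio 2.18. Genes of near-identical copies such as the Gbp family can share reads.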
